A study of Mus musculus with 4 samples.

Results

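The interferon-stimulated genes examined here are 35 genes induced by type I or type II interferon, chosen by name from the deposited table, and all 35 were found among its 21931 genes. All 35 also passed the filter on low counts, as did 15055 genes in all. Lung RNA was sequenced from untreated C57BL6 mice aged 2 months to find genes affected by knockout of Dnah9, which encodes a dynein heavy chain that drives motile cilia. There were 2 libraries labelled Dnah9 knockout (KO 1 and KO 2), 1 library with the genotype label Hez, which is kept as written, and 1 wild-type library (WT). The sources used here do not give the mutant allele, the deleted part of the gene, or the sex and litter of the mice.

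Interferons are cytokines, of which type I and type III are released on sensing of viral or bacterial nucleic acids. Type I and type III interferons signal through a complex with Stat2 and Irf9 that binds the interferon-stimulated response element (ISRE) near target genes. Type II interferon acts mainly through another element, the gamma-activated site (GAS). The induced genes encode sensors, signalling proteins and direct antiviral effectors, and in unchallenged lung many of them are transcribed at a low basal level.

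The sequences just upstream of the annotated starts show these elements directly. RefSeq promoter windows (GRCm38.p6, 250 bases before to 50 bases after the start) were matched for 26 of the 35 genes. The ISRE core was searched as GAAA and GAAA with 2 bases of any kind between them, or the reverse complement TTTC and TTTC, and GAS as the palindrome of TTC and GAA with 3 bases between them, which can overlap an ISRE core. The 150 bases before the start are shown for 9 genes, picked to cover the roles described below and to show single, repeated and overlapping matches. Capitals mark ISRE and GAS matches, and each sequence runs 5′ to 3′ on the strand of the gene.
Irf1 (chr11:53769864-53770013, plus strand): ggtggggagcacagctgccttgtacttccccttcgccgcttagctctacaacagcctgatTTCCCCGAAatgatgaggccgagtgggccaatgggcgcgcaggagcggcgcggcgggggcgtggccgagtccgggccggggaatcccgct
Isg15 (chr4:156200819-156200968, minus strand): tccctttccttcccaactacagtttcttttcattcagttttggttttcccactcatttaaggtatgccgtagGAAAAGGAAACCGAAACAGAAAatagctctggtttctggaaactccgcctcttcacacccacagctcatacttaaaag
Ifit1 (chr19:34640739-34640888, plus strand): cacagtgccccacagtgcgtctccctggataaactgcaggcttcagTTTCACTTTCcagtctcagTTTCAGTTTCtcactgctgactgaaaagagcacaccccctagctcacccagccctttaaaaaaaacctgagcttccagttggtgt
Oas3 (chr5:120777660-120777809, minus strand): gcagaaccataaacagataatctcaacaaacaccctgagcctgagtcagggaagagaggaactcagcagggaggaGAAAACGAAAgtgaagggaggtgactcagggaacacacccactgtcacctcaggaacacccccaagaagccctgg
Rsad2 (chr12:26456453-26456602, minus strand): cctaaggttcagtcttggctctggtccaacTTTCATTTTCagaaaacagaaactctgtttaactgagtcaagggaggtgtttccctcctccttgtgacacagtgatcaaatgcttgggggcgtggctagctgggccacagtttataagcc
Bst2 (chr8:71537473-71537622, minus strand): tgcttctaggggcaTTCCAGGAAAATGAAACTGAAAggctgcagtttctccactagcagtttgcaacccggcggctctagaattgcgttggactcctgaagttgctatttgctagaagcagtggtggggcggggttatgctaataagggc
Gbp2 (chr3:142620513-142620662, plus strand): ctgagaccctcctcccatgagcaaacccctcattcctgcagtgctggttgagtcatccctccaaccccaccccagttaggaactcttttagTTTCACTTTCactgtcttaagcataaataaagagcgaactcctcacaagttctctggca
Igtp (chr11:58199406-58199555, plus strand): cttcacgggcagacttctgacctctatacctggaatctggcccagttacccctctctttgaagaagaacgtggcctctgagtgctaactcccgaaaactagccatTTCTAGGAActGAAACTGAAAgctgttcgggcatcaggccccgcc
Irgm1 (chr11:48871421-48871570, minus strand): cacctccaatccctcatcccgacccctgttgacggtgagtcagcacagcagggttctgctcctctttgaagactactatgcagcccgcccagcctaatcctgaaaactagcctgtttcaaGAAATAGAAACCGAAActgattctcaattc

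Isg15 held 3 overlapping ISRE cores in a row, Ifit1 held 2 separate ones on the reverse strand, and Irgm1 held 2 that overlap. Bst2 held a GAS match that runs into its ISRE cores, and in Igtp a GAS match lay just upstream of the ISRE core. The stretch of Irf1 held a GAS match and no ISRE core. Of the 26 genes with a window, 15 (57.7%) held an ISRE core in at least 1 window, against 3.99% of all 27025 genes with a window. A GAS match was present in 8 (30.8%), against 9.55% of all genes, and 4 genes held both (15.4% against 0.614%). A longer form of the ISRE, AGTTTC and TTTC with 2 bases between them on either strand, was present in 9 (34.6%), against 0.303% of all genes. In 7 genes neither the ISRE core nor GAS was found, which says only that these letters are absent from the windows searched. The genes were chosen as interferon-induced, so these shares describe the list. Usp18, Oas2, Mx1, Mx2, Dhx58, Zbp1, Iigp1, Parp14 and Rtp4 had no matched window.

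**Figure D1:**
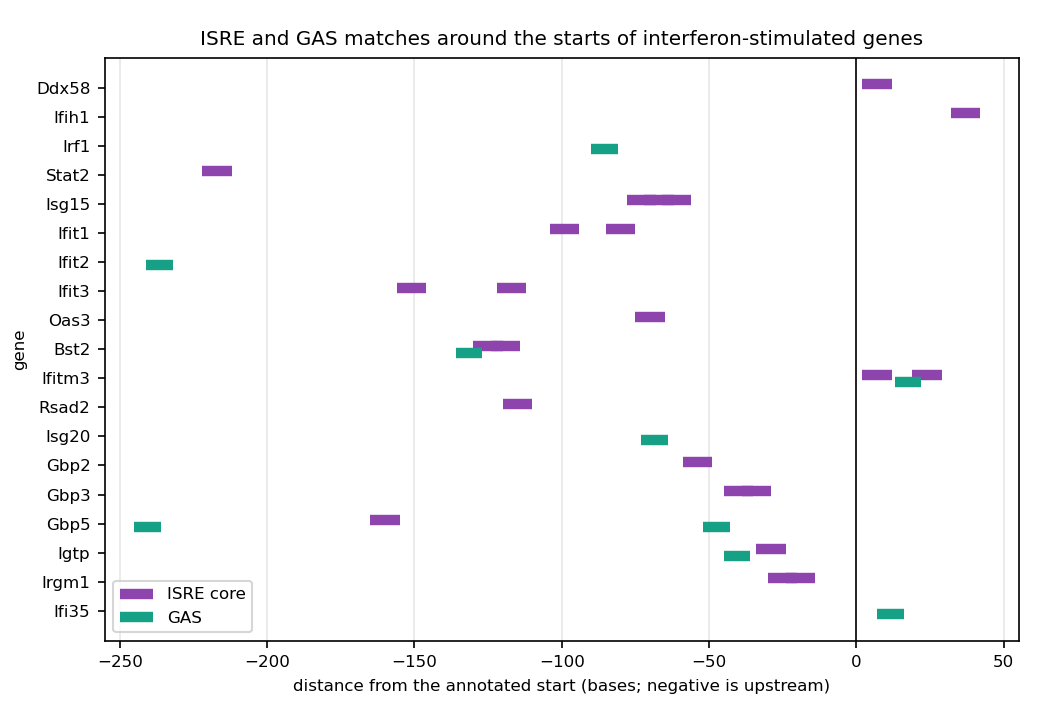
Position of ISRE core matches (purple) and GAS matches (green) around the annotated start for the 19 genes with at least 1 match, in bases, with the start base at 0. Matches of Isg15, Ifit1, Gbp2, Gbp3, Igtp and Irgm1 lie upstream of the start, while those of Ddx58, Ifih1, Ifitm3 and Ifi35 lie after it.

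The deposited table places many members next to one another (GRCm39). Ifit2, Ifit3 and Ifit1 lie within 99316 bases on chromosome 19 (34528094 to 34627409), and Gbp5, Gbp3 and Gbp2 within 144031 bases on chromosome 3 (142199739 to 142343769). Oas2 and Oas3 lie side by side on chromosome 5 (120868398 to 120915726), with Oasl2 and Oasl1 elsewhere on that chromosome (115034997 to 115075974). Rsad2 and Cmpk2 share a 37092-base interval of chromosome 12, and Mx1 and Mx2 one of 113866 bases on chromosome 16. In the gene ontology column of the deposited table, 20 of the 35 genes (57.1%) carried defense response to virus, against 0.88% of all genes in the table.

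The libraries held 15860478 to 16553480 reads, and the surfactant gene Sftpc and the club cell gene Scgb1a1 were abundant in each, as in lung. Levels below are given as CPM, read counts scaled to library size, for comparing libraries, and as FPKM, which also divides by gene length, for comparing genes. Dnah9 stood at 14.8 and 15.98 CPM in KO 1 and KO 2, 25.4 in Hez and 56.6 in WT, so the KO libraries were lowest, and its log2 fold against WT was -1.88 (SE 0.145, edgeR adjusted p = 0.00864). The log2 fold of Dnah9 was -0.73 against Hez (SE 0.152) and -1.42 against WT and Hez together (SE 0.326, edgeR adjusted p = 0.627). Neither passed an adjusted p of 0.05 (edgeR). WT was also high in 6 club and multiciliated cell markers, of which 0 lay above WT in KO 1, KO 2 or Hez. Their median log2 difference from WT was -0.54 in KO 1, -0.52 in KO 2 and -0.63 in Hez. The KO libraries differed from each other in neutrophil genes: the summed level of 6 markers was 402 CPM in KO 1 and 126 in KO 2, against 231 in Hez and 245 in WT. In bulk tissue, fewer cells of a type and less RNA per cell cannot be told apart. With 1 WT and 1 Hez library, each test against them rests on the spread between the 2 KO libraries, moderated over all genes, and assumes that the lone libraries vary alike.

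The interferon-stimulated genes were expressed at low to moderate levels in all 4 libraries. Ifitm3, which blocks virus entry in endosomes, was far above the rest at 297 and 253 FPKM in KO 1 and KO 2, 240 in Hez and 255 in WT. Bst2, the tether that holds budding virus at the cell surface, followed at 45.6 to 50.8 FPKM, then Ifit3 at 23.91 to 25.999, Irf1 at 20.5 to 22.7 and Gbp2 at 20.3 to 23.7. The ranges of Ifitm3, Bst2 and Ifit3 over the 4 libraries each lay apart from that of the next gene, while those of Irf1 and Gbp2 overlapped, as did those of neighbours in the order Parp14, Ddx58, Stat2, Irf9, Igtp, Ifi35, Oasl2 and Isg15. The median over the 35 genes was 8.84 FPKM, against 5.82 over all genes tested, and 20 of them lay between 5 and 20 FPKM. At the low end were Oasl1 at 1.07 to 1.43 FPKM, Mx2 at 0.907 to 1.23 and Oas3 at 0.624 to 1.68.

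**Figure D2:**
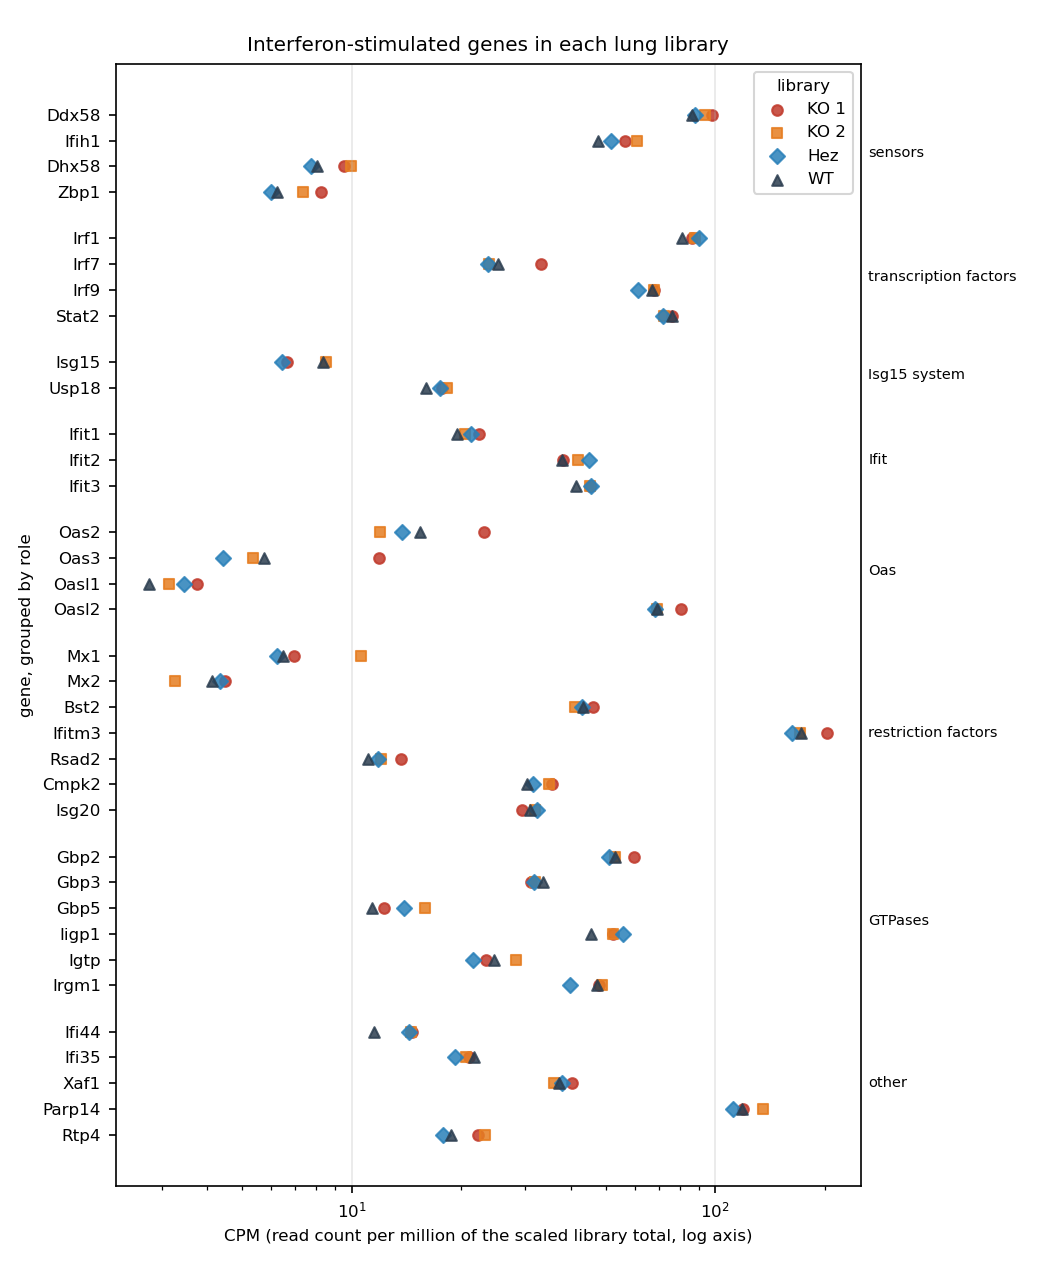
CPM of each of the 35 genes in KO 1, KO 2, Hez and WT (log axis), with genes grouped by role. The 4 libraries lie close together for most genes, while KO 1 stands apart from the others for Oas2, Oas3 and Irf7, and KO 2 for Mx1.

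The question the series poses is whether lung genes change when Dnah9 is knocked out. In KO against WT, 0 of the 35 interferon-stimulated genes passed the threshold (edgeR adjusted p under 0.05), where 0.0531% of all genes tested did so. With DESeq2 the count was 0 against a background of 0.093%, and with limma-voom 0 against 0.0598%. At an unadjusted p below 0.05 there was 1 gene on the higher side, Ifih1, and 0 on the lower side, against 1.81% and 3.37% of all genes. DESeq2 gave no adjusted p against WT for Dhx58, Zbp1, Isg15, Oas3, Oasl1, Mx1, Mx2 and Rsad2, so these could not pass there. The log2 folds of the 35 genes were small, from -0.14 (Isg15) to 0.59 (Oas3). Of the 35, 29 were positive (82.9%), against 51.1% of all genes, and their median was 0.13, against 0.00449 over all genes tested. For scale, the median size of the log2 fold regardless of sign was 0.14 for these genes and 0.12 for all genes, so against WT single members lay about as far from 0 as genes in general. These sizes were 0.143 and 0.122 against Hez, and 0.133 and 0.097 against WT and Hez together. Genes of a pathway can vary together within a library, and the list was chosen with earlier results known, so no test was made of the count or the median.

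Against Hez the picture was alike in size. Again 0 of 35 passed (edgeR, 0.00664% of all genes; DESeq2 0, 0.0465%; limma-voom 0, 0.00664%). At an unadjusted p below 0.05 there was 1 gene, Irgm1, higher in KO, against 2.5% of all genes, and 0 lower, against 2.11%. Of the log2 folds 28 were positive (80%), against 52.5% of all genes, with a median of 0.12 against 0.01. That median was 0.12 with KO 1 as the only KO library and 0.05 with KO 2 alone. The comparisons with WT and with Hez share both KO libraries, so their likeness is not independent.

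With WT and Hez as 1 group of 2 libraries, 0 of 35 passed (edgeR, 0.0136% of all genes; DESeq2 0, 0.15%; limma-voom 0, 0.00681%). At an unadjusted p below 0.05 there were 2, Ifih1 and Rtp4, both higher in KO, against 2.3% of all genes, and 0 lower, against 2.75%. The median log2 fold was 0.13, against -0.00262 over all genes, and 30 of 35 were positive (85.7%, against 49.1%). Without KO 1 the median was 0.05 with 28 positive, and without KO 2 it was 0.13 with 30 positive. Of all genes, 48.5% were positive without KO 1 and 48.7% without KO 2. The spread in these fits comes from WT and Hez, and the lone KO library is assumed to vary alike.

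**Figure D3:**
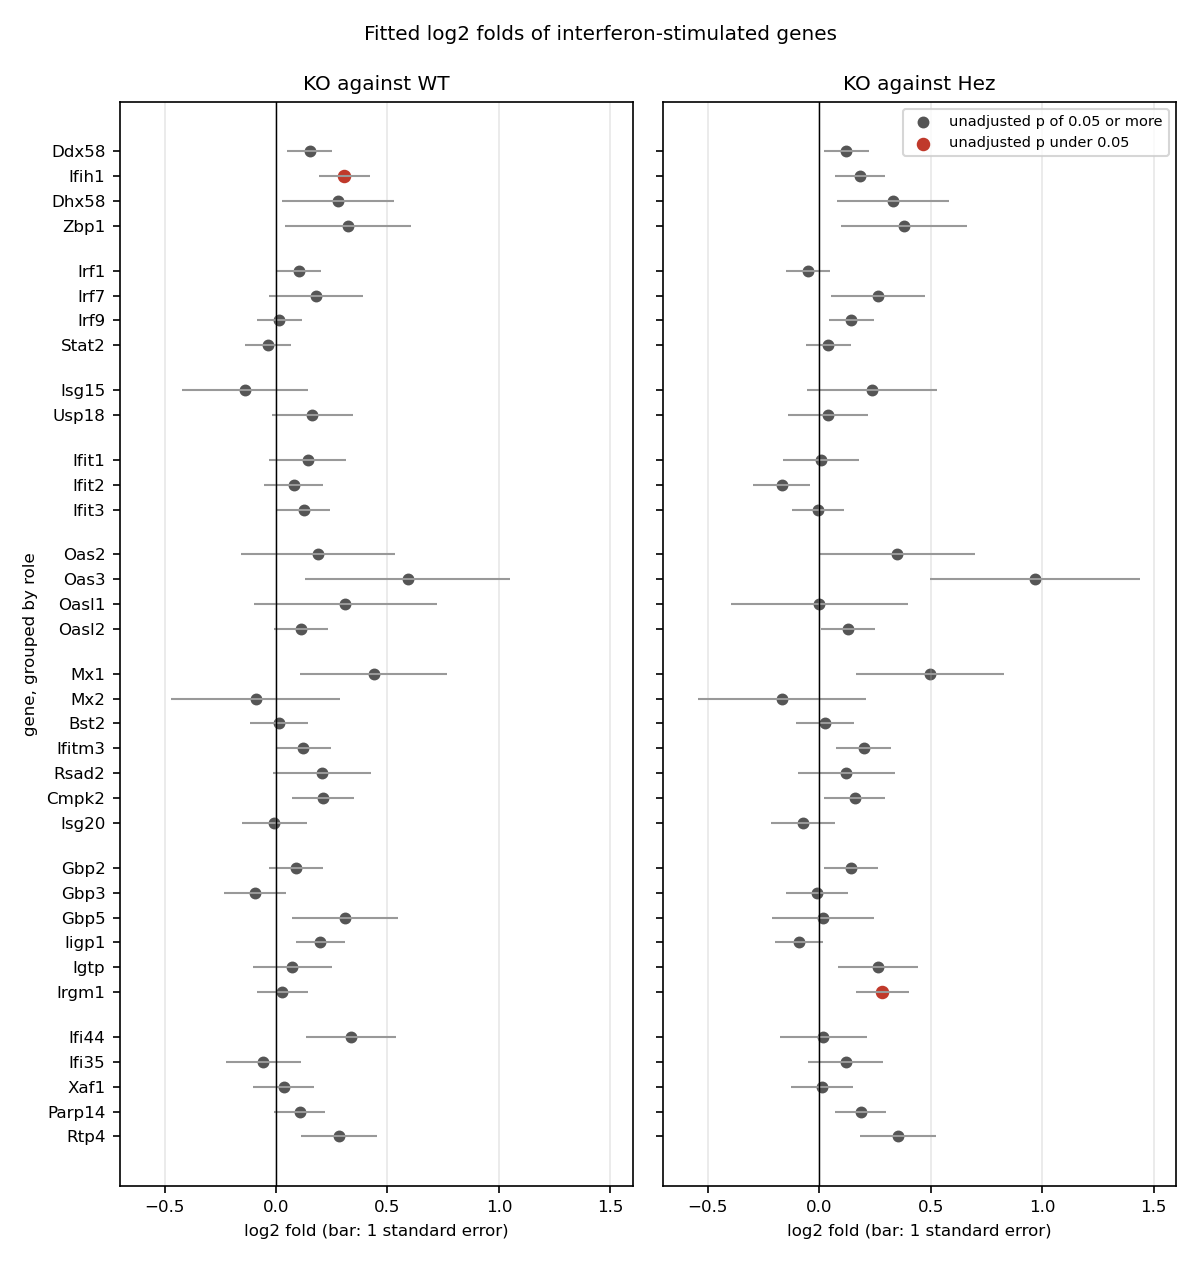
Fitted log2 folds of the 35 genes in KO against WT (left) and KO against Hez (right), with bars of 1 standard error from edgeR, and red points where the unadjusted p was below 0.05. Most points lie between 0 and 0.4, Oas3 reaches 0.59 and 0.97 with wide bars, and the red points are Ifih1 on the left and Irgm1 on the right.

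Set against single libraries, both KO libraries lay above both WT and Hez for 13 of the 35 genes (37.1%), where 17.5% of all genes did so, and below both for 0, where 16.3% of all genes did so. Against WT alone both KO libraries lay above for 20 genes (57.1%, against 33% of all genes) and below for 2 (5.71%, against 33.4%). Against Hez alone they lay above for 22 (62.9%, against 34.2%) and below for 5 (14.3%, against 31.9%). For 7 of the 13 the lower KO library was 1.065 to 1.19 times the higher of WT and Hez. For the other 6 (Rsad2, Usp18, Irf9, Ifi44, Parp14 and Irgm1) this ratio was 1.008 to 1.019. For 0 of the 13 did the 95% exact Poisson intervals of both KO libraries, which cover counting error only, lie above those of both WT and Hez. The share of all genes that met this rule was not counted, so it describes the 13 only. With library totals in place of scaled totals 10 of the 13 remained, without Irf9, Irgm1 and Parp14. With the size factors of DESeq2 all 13 remained, and Gbp3 lay below both. Taking each gene's highest library, KO 1 was highest for 18 genes (51.4%, against 24.6% of all genes), KO 2 for 10 (28.6%, against 26.4%), Hez for 5 (14.3%, against 23.9%) and WT for 2 (5.71%, against 25.2%). The lowest library was KO 1 for 2 genes (5.71%, against 24.9% of all genes), KO 2 for 4 (11.4%, against 25.4%), Hez for 16 (45.7%, against 25.4%) and WT for 13 (37.1%, against 24.3%). KO 1 lay above KO 2 for 20 genes (57.1%, against 49.7%).

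**Figure D4:**
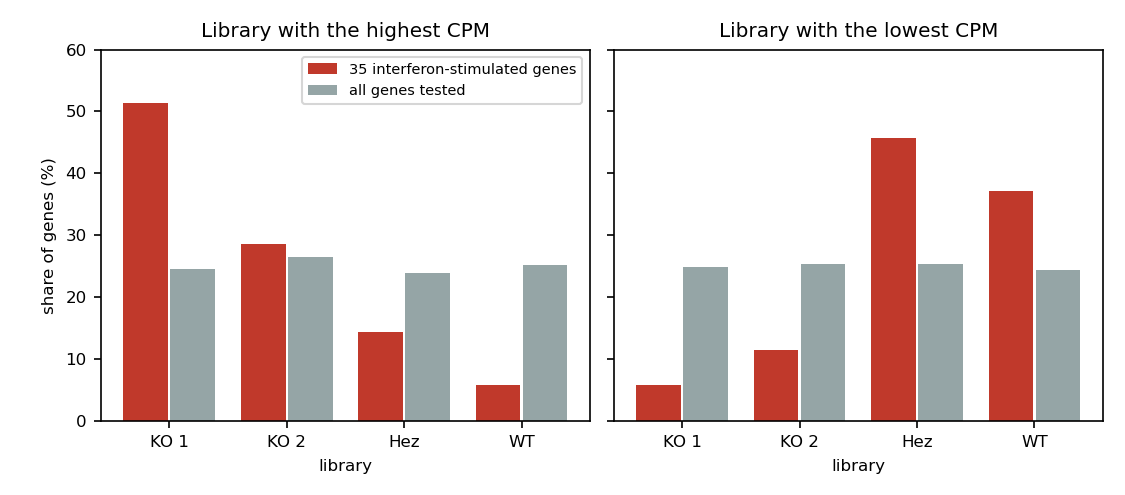
Share of genes (%) for which each library had the highest (left) or the lowest (right) CPM, for the 35 interferon-stimulated genes (red) and all 15055 genes tested (grey). KO 1 was highest for 51.4% of the 35 genes and Hez lowest for 45.7%, while each library took 23.9% to 26.4% of all genes.

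All 4 genes listed here as nucleic acid sensors were among the 13 genes above both WT and Hez in both KO libraries, a pattern that 17.5% of all genes showed. This holds for that list only, which was chosen with earlier results known, and no Oas gene was among the 13. Ifih1 (ENSMUSG00000026896, chromosome 2, 62426142 to 62476599), which encodes the sensor of long double-stranded RNA MDA5, stood at 56.4 and 60.9 CPM in KO 1 and KO 2, 51.7 in Hez and 47.5 in WT. Its intervals were 52.8 to 60.2 and 57.1 to 64.9 in the KO libraries, 48.3 to 55.3 in Hez and 44.2 to 50.9 in WT, so both KO intervals lay above that of WT and the interval of KO 1 overlapped that of Hez. Its log2 fold was 0.31 against WT (SE 0.114, edgeR unadjusted p = 0.028, adjusted p = 0.847) and 0.18 against Hez (SE 0.113, edgeR adjusted p = 1).

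Ddx58, the RNA sensor RIG-I, had the highest level per length of the sensors and stood at 97.8 and 93.9 CPM in KO 1 and KO 2, 88.2 in Hez and 86.3 in WT (log2 fold against WT 0.15, SE 0.101). Dhx58, which encodes the related helicase LGP2 that modulates both sensors, stood at 9.53 and 9.94 CPM, 7.74 in Hez and 8.02 in WT. Zbp1, which senses nucleic acids in the Z form and can start cell death, stood at 8.24 and 7.36 CPM in the KO libraries, 5.99 in Hez and 6.23 in WT. The values of the groups did not overlap for these genes, but the intervals of Dhx58 and Zbp1 in both KO libraries, and of Ddx58 in KO 2, overlapped those of WT and Hez. The log2 folds of 0.28 (SE 0.25) and 0.32 (SE 0.283) of Dhx58 and Zbp1 were close to their standard errors.

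The transcription factors of the response were nearly level. Irf1, which mediates part of the type II response, stood at 86.2 and 87.9 CPM in KO 1 and KO 2, 90.3 in Hez and 81.1 in WT, so the KO libraries lay between the others. Irf9, the DNA-binding part of the complex that recognises the ISRE, stood at 67.7 CPM in each KO library, 61.3 in Hez and 67.0 in WT. Its partner Stat2 stood at 75.97 and 72.1 CPM in KO 1 and KO 2, 71.99 in Hez and 75.96 in WT, with a log2 fold of -0.04 against WT (SE 0.102). Irf7, the main activator of interferon-alpha genes, was high in KO 1 alone, at 33.2 CPM, against 23.8 in KO 2, 23.8 in Hez and 25.2 in WT, and without KO 1 its log2 fold against WT was -0.08. Irf7 overlaps Phrf1 on the opposite strand by 45 bases and Irf9 overlaps Rnf31 by 123, and whether the counting used strand is not given.

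Isg15, a ubiquitin-like protein joined to other proteins during infection, stood at 6.64 and 8.49 CPM in KO 1 and KO 2, 6.41 in Hez and 8.33 in WT. KO 1 was thus near Hez and KO 2 near WT, and the groups overlapped. Usp18, which removes Isg15 and restrains the type I receptor, stood at 17.7 and 18.2 CPM, 17.5 in Hez and 16.04 in WT. The Ifit genes, whose products bind viral RNA, were lowest in WT: Ifit3 stood at 45.4 and 45.1 CPM in the KO libraries, 45.4 in Hez and 41.5 in WT, with a log2 fold of 0.13 against WT (SE 0.119). Ifit1 ranged from 19.4 to 22.4 CPM and Ifit2 from 37.8 to 44.9 over the 4 libraries, and Ifit2 was highest in Hez. Ifit3 has a near-identical neighbour, Ifit3b, with which it may share reads.

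Of the 35 genes, Oas3 and Oas2 differed most between the KO libraries. Oas3 (ENSMUSG00000032661, chromosome 5, 120891163 to 120915726), which like Oas2 makes the oligoadenylates that activate RNase L, had 194 and 85 reads in KO 1 and KO 2, 73 in Hez and 93 in WT. This was 11.9 CPM in KO 1 (95% exact Poisson interval 10.3 to 13.7) and 5.35 in KO 2 (4.27 to 6.61), against 4.42 in Hez (3.46 to 5.55) and 5.74 in WT (4.63 to 7.03). KO 1 stood alone, and KO 2 overlapped both Hez and WT. Its log2 folds, 0.59 against WT (SE 0.459, edgeR adjusted p = 0.996) and 0.97 against Hez (SE 0.473, edgeR adjusted p = 1), rested on KO 1, and without it the fold against WT was -0.10.

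Its neighbour Oas2 (ENSMUSG00000032690) stood at 23.2 CPM in KO 1 and 11.95 in KO 2, against 13.8 in Hez and 15.4 in WT, so KO 1 was highest and KO 2 lowest, and without KO 1 its log2 fold against WT was -0.36. The difference of KO 1 from KO 2 was 0.95 for Oas2 and 1.14 for Oas3 on the log2 scale. The median size of this difference, regardless of sign, was 0.13 over the 35 genes and 0.14 over all genes tested. Oasl2 had the highest level per length of the family, at 80.5 and 69.0 CPM in KO 1 and KO 2, 68.4 in Hez and 69.2 in WT. Oasl1, which in mouse represses translation of Irf7, ranged from 2.78 to 3.75 CPM. Oas2, Oas3 and Mx1 were the 3 members whose KO libraries differed by more than 1.5-fold, and 9.88% of all genes did so. The intervals of KO 1 and KO 2 were apart for 7 genes (20%, against 19.6% of all genes): Ifitm3, Irf7, Mx1, Oas2, Oas3, Oasl2 and Parp14, a set named after its values were seen. KO 1 was the higher of the pair for Ifitm3, Irf7, Oas2, Oas3 and Oasl2, and KO 2 for Mx1 and Parp14. In the same libraries the neutrophil markers S100a9 and Csf3r stood at 139 and 130 CPM in KO 1 and at 29.7 and 51.4 in KO 2, and the part of such cells in the Oas levels was not tested.

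Of the 7 restriction factors 5 had small positive log2 folds against WT, while those of Mx2 (-0.09) and Isg20 (-0.007) were negative. Ifitm3 stood at 203 and 171 CPM in KO 1 and KO 2, 163 in Hez and 172 in WT, with KO 2 level with WT. Mx1, a dynamin-like GTPase whose allele in C57BL6 mice is known to be nonfunctional, stood at 6.95 and 10.6 CPM in KO 1 and KO 2, 6.23 in Hez and 6.48 in WT, and KO 2 was far above the rest (log2 fold against WT 0.44, SE 0.331). Its paralog Mx2 was lowest in KO 2, at 3.27 CPM, against 4.49 in KO 1, 4.36 in Hez and 4.13 in WT. Cmpk2, a mitochondrial nucleotide kinase, stood at 35.6 and 34.9 CPM in the KO libraries, 31.6 in Hez and 30.4 in WT. Next to it, Rsad2, which encodes viperin, stood at 13.65 and 12.02 CPM, 11.8 in Hez and 11.1 in WT. Bst2 ranged from 41.1 to 46.2 CPM and the exonuclease gene Isg20 from 29.4 to 32.3, with the KO libraries on both sides of WT for each gene.

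The GTPases that act on vacuoles of intracellular pathogens, many of them induced most by type II interferon, had log2 folds against WT from -0.09 (Gbp3) to 0.31 (Gbp5). Irgm1 (ENSMUSG00000046879, chromosome 11, 48752795 to 48762510) stood at 47.8 and 48.9 CPM in KO 1 and KO 2, 39.7 in Hez and 47.4 in WT, so Hez was low and the other 3 libraries were level. Its log2 fold was 0.28 against Hez (SE 0.118, edgeR unadjusted p = 0.043, adjusted p = 1) and 0.03 against WT (SE 0.116, edgeR adjusted p = 0.996). Gbp2 had the highest level per length of the group and stood at 59.9 and 53.0 CPM in the KO libraries, 51.1 in Hez and 53.1 in WT. Gbp3 was the single gene of this group with a negative log2 fold against WT, at -0.09 (SE 0.138). Gbp5, Iigp1 and Igtp ranged from 11.4 to 15.9, from 45.5 to 55.7 and from 21.5 to 28.3 CPM. Igtp lies within an overlap of 7974 bases with Irgm2 on the same strand, so its count is uncertain.

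Of the remaining genes, Rtp4, Parp14 and Ifi44 lay above both WT and Hez in both KO libraries. Rtp4 (ENSMUSG00000033355, chromosome 16, 23339041 to 23432972), a chaperone of membrane receptors, stood at 22.3 and 23.3 CPM in KO 1 and KO 2, 17.8 in Hez and 18.7 in WT. Its intervals were 20.02 to 24.7 and 21.0 to 25.8 in the KO libraries, 15.9 to 20.003 in Hez and 16.7 to 20.9 in WT, so that of KO 1 overlapped WT. The log2 fold against WT and Hez together was 0.31 (SE 0.123, edgeR unadjusted p = 0.0353, adjusted p = 0.9748). Rtp4 overlaps Masp1 on the opposite strand by 525 bases. Parp14, an ADP-ribosyltransferase, stood at 119 and 135 CPM, 112 in Hez and 118 in WT, with KO 1 level with WT. Ifi44 stood at 14.6 and 14.5 CPM in the KO libraries and 14.4 in Hez, with WT alone lower at 11.5 (log2 fold against WT 0.34, SE 0.202). Ifi35 and Xaf1, a partner of the apoptosis inhibitor Xiap, ranged from 19.2 to 21.7 and from 35.9 to 40.3 CPM.

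Hez against WT had 1 library on each side and no test. The log2 differences of the 35 genes ran from -0.37 (Isg15) to 0.32 (Ifi44), with a median of -0.02 against -0.00224 over all genes tested. Of the 35, 16 were positive (45.7%, against 49.5% of all genes). None of the 35 genes lay past a fold of 1.5 in either direction, where 2.8% of all genes lay past it on the higher side and 6.84% on the lower side.

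Upstream of these genes, the interferons themselves were barely seen. Of 11 ligand genes, 8 had no read in any library, among them Ifnb1 and the 5 interferon-alpha genes of the list, and Ifne, Ifnk and Ifng had a few reads. Over all 11 genes the reads numbered 1 and 4 in KO 1 and KO 2, 4 in Hez and 0 in WT. At these depths a count of 0 allows a level of up to 0.183 and 0.189 CPM in KO 1 and KO 2, 0.181 in Hez and 0.186 in WT (3 counts in each library), so a difference in ligand transcripts was not detectable.

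The receptors and their kinases were well expressed. Of 6 receptor genes 0 passed the threshold (edgeR) in any of the comparisons, with 0 at an unadjusted p below 0.05 against WT, and 5 of 6 had positive log2 folds against WT (median 0.08). Of all genes, 51.1% had positive log2 folds against WT. Ifngr1, the type II receptor chain with the highest level per length, stood at 215 and 193 CPM in KO 1 and KO 2, 219 in Hez and 200 in WT, and Il10rb, a chain shared with the interleukin-10 receptor family, at 42.0 and 38.3 CPM, 34.2 in Hez and 32.1 in WT. Ifnar1, the type I receptor chain, stood at 108 and 109 CPM in the KO libraries, 109 in Hez and 100 in WT. Of 5 kinase and STAT genes 0 passed (0 at an unadjusted p below 0.05) and 5 were positive against WT (median 0.12). Jak1 stood at 321 and 303 CPM, 304 in Hez and 287 in WT, and Stat3 at 282 and 248.6 CPM, 241 in Hez and 238 in WT.

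Of 12 genes of interferon-inducing signalling 0 passed, and 2 had an unadjusted p below 0.05 against WT (edgeR), both higher, against 1.81% of all genes. These were Ticam1, the adaptor of Tlr3 (21.6 and 17.6 CPM in KO 1 and KO 2, 15.6 in Hez and 13.6 in WT, log2 fold 0.53, SE 0.208, edgeR adjusted p = 0.894), and Tlr3 itself (52.1 and 55.1 CPM, 51.5 in Hez and 44.4 in WT, log2 fold 0.27, SE 0.114, edgeR adjusted p = 0.947). Irf3, with the highest level per length, had a log2 fold of 0.09. Among 7 tested negative regulators 0 passed, and 1 had an unadjusted p below 0.05 against WT (edgeR), Socs3, higher in KO, against 1.81% of all genes. Socs3, a feedback inhibitor of cytokine receptors that many cytokines besides interferon induce, stood at 59.1 and 52.4 CPM in KO 1 and KO 2, 39.4 in Hez and 37.8 in WT, with a log2 fold of 0.56 against WT (SE 0.129, edgeR unadjusted p = 0.00248, adjusted p = 0.445). Ptpn2 had a log2 fold of 0.24 (SE 0.149) and Samhd1, the one with the highest level per length, 0.05 (SE 0.101). Trex1 is listed at 0 in all 4 libraries, but in the deposited table it lies within Atrip on the same strand, so its count is uncertain.

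All 10 genes of class I antigen presentation and the immunoproteasome had positive log2 folds against WT (median 0.10), as did 51.1% of all genes. Of the 10, 0 passed and 0 had an unadjusted p below 0.05 (edgeR). B2m, the light chain of class I molecules, stood at 862 and 953 CPM in KO 1 and KO 2, 809 in Hez and 818 in WT (log2 fold 0.15, SE 0.087, edgeR adjusted p = 0.996), and Tap2, a peptide transporter subunit, had a log2 fold of 0.27 (SE 0.141, edgeR adjusted p = 0.996). The interferon-inducible chemokines were near the limit of detection. Cxcl10 stood at 0.676 and 1.76 CPM in KO 1 and KO 2, 0.665 in Hez and 0.494 in WT, and Cxcl9 at 0.738 and 0.818 CPM, 1.21 in Hez and 1.36 in WT. These genes thus had opposite signs, 1.29 (SE 0.902) and -0.80 (SE 0.663), both within 2 standard errors of 0, and Cxcl11 had 1 read in KO 1 only.

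Marker genes of immune cells and endothelium were summed in the same libraries. At an unadjusted p below 0.05 against WT (edgeR) there were 1 T or natural killer, 1 B cell, 2 monocyte or macrophage, 1 alveolar macrophage, 3 endothelial, 0 plasmacytoid dendritic and 0 neutrophil markers, all higher in KO. Of all genes, 1.81% were higher and 3.37% lower at that p. Against Hez there were 2 B cell, 4 monocyte or macrophage and 3 alveolar macrophage markers, all higher in KO, 1 plasmacytoid dendritic marker, lower in KO, and 0 of the T or natural killer, endothelial and neutrophil markers. Of all genes, 2.5% were higher and 2.11% lower against Hez. The median log2 fold against Hez was 0.41 for the monocyte and macrophage markers, of which 9 of 9 were positive, 0.45 for the alveolar macrophage markers (5 of 6) and 0.39 for the B cell markers (6 of 6). Positive log2 folds were found for 52.5% of all genes against Hez and 51.1% against WT. The 9 measured T and natural killer markers summed to 73.8 CPM in KO 1 and 54.4 in KO 2, against 60.8 in Hez and 54.5 in WT, with 8 positive log2 folds against WT, 0 passing and Gzmb, a cytotoxic granule protease, at 1.09 (SE 0.451, edgeR adjusted p = 0.929). The 6 measured B cell markers summed to 202 and 148 CPM in KO 1 and KO 2, 134 in Hez and 134 in WT, with 6 positive and 0 passing, and Fcer2a at 0.60 (SE 0.175, edgeR adjusted p = 0.632). The 9 monocyte and macrophage markers summed to 7601 and 6359 CPM in KO 1 and KO 2, 6059 in Hez and 6161 in WT, with 7 positive and 0 passing. Of these Lyz2 made up most, and Adgre1 had a log2 fold of 0.39 (SE 0.145, edgeR adjusted p = 0.831). The 35 interferon-stimulated genes summed to 1468 and 1412 CPM in KO 1 and KO 2, 1334 in Hez and 1334 in WT, so KO 1 was highest for each of these sums. The median log2 difference of KO 1 from KO 2 was 0.01 over the 35 genes. It was 0.34 for the T and natural killer, 0.50 for the B cell and 0.06 for the monocyte and macrophage markers.

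The 6 alveolar macrophage markers, by contrast, summed to 1025 and 1342 CPM in KO 1 and KO 2, 817 in Hez and 799 in WT, with KO 2 highest, 0 passing and Chil3 at a log2 fold of 0.76 (SE 0.181, edgeR adjusted p = 0.445). The 6 endothelial markers summed to 4027 and 4109 CPM in KO 1 and KO 2, 4148 in Hez and 3674 in WT, with 6 positive log2 folds and 0 passing, and Cldn5 at 0.27 (SE 0.0945, edgeR adjusted p = 0.812). The 5 plasmacytoid dendritic cell markers summed to 244 and 260 CPM in KO 1 and KO 2, 267 in Hez and 224 in WT, most of it Tcf4, which other lung cells express. Siglech, which defines these cells, stood at 4.73 and 3.96 CPM in the KO libraries, 8.11 in Hez and 4.07 in WT. None of the measured markers in these lists was at 0 in any library. Whether the makeup of immune cells has a part in the levels of the interferon-stimulated genes was not tested.

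**Figure D5:**
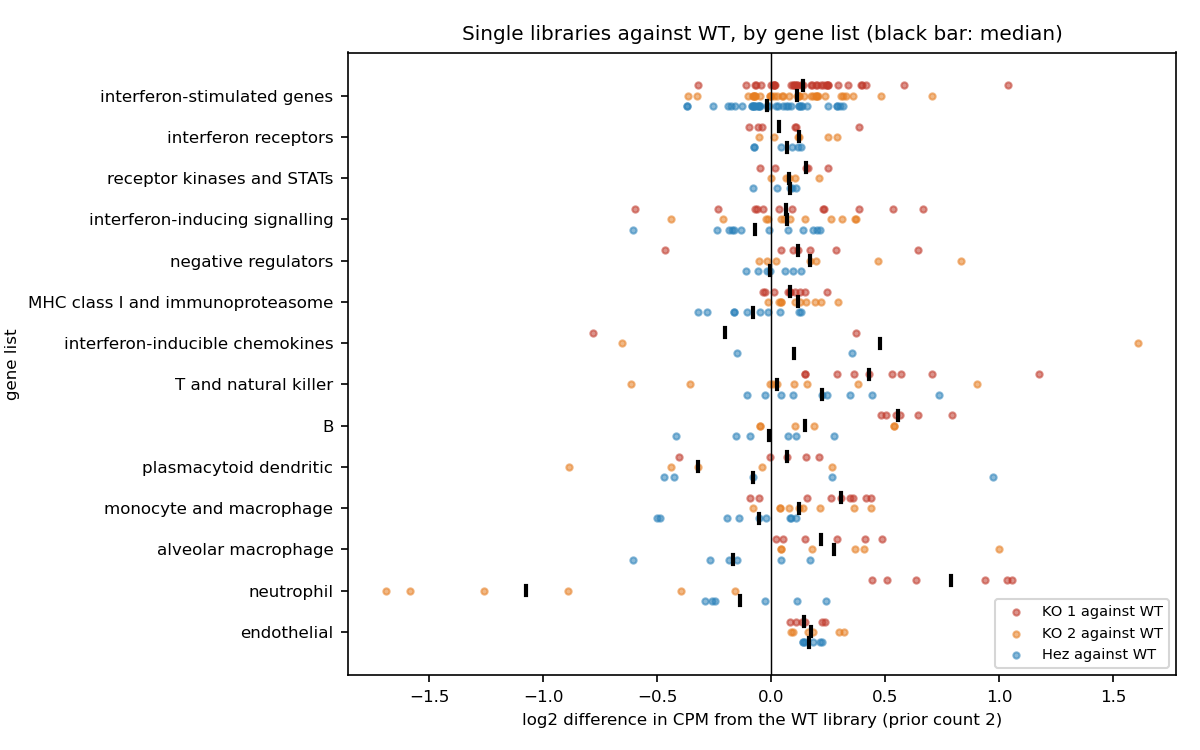
Difference in log2 CPM (prior count 2) of KO 1, KO 2 and Hez from the WT library for single genes of each list, with black bars at the medians. The interferon-stimulated genes have medians of 0.14 in KO 1, 0.11 in KO 2 and -0.02 in Hez, while the neutrophil markers have 0.79 in KO 1 and -1.08 in KO 2.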

How the data were processed

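Per the labels' protocols, total RNA of fresh lung went into TruSeq libraries read on a HiSeq instrument. The authors deposited a table with raw counts of reads for each gene, and FPKM values equal to the count over gene length and library total (relative tolerance 1e-06), per the file headers and values. Per the submitters' processing notes, the build is GRCm39. Aligner, counter and strand setting: not given in the sources used here.

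Counts were scaled by TMM (factors 0.993 to 1.01), filtered with filterByExpr (minimum count 10) and tested two-sided with edgeR 4.0.16 (R 4.3.3) by the quasi-likelihood test with Benjamini-Hochberg adjustment over all genes tested, at a threshold of 0.05. A fit of 3 groups (1 residual degree of freedom) served KO against WT and against Hez, and a fit of 2 groups (2 residual degrees of freedom) served KO against both. Standard errors were the log2 fold over the square root of F. Nothing says that the KO libraries are separate animals, so each p-value reflects only the spread of these libraries, possibly technical. Alternatives included DESeq2 1.42.0, limma 3.58.1 (voom, and log2 FPKM), other filters and scaling, and leaving out libraries.

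The members and lists were chosen with earlier results of these data known. All library values were given for members past a threshold, with an unadjusted p below 0.05 against WT, with both KO libraries beyond WT and Hez, or with the highest FPKM of their role. Other members were named with their range, and those differing between the KO libraries, with Irgm1 and Socs3, after their values were seen. Of other lists, the 2 genes with the smallest p and the one with the highest FPKM were to be named. Some of these were given with a log2 fold only, and some were left out. Trac and Ighm are not in the lists' counts. Promoter sequences are from RefSeq (GRCm38.p6), a build other than that of the table, and their coordinates were not combined with it.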

Additional observations from a re-analysis of the deposited data

How the results depend on the processing

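The count of 0 interferon-stimulated genes past the threshold held in all 3 comparisons under every alternative run, among them DESeq2, limma-voom, limma on log2 FPKM, other scaling and filters, and each library left out where a test remained. Not every alternative tested all 35 genes: 28 had a mean of at least 10 CPM, and 34 passed the filter of limma on log2 FPKM. DESeq2 gave no adjusted p against WT for Dhx58, Zbp1, Isg15, Oas3, Oasl1, Mx1, Mx2 and Rsad2. Without either KO library, no residual degree of freedom is left for KO against WT or Hez, so these are values with no test. The median log2 fold of the members stayed positive throughout. Against WT (main value 0.125) it was 0.103 for genes with a mean of at least 10 CPM, 0.0991 with limma on log2(FPKM + 0.5) and 0.101 with a pseudocount of 0.1, and 0.112 to 0.141 with 1 library left out. Against Hez it was 0.0513 to 0.117 and against WT and Hez together 0.0512 to 0.127 with 1 library left out, the lowest in both cases without KO 1. Against WT, the log2 fold of 10 members had the other sign without KO 1 (Bst2, Gbp2, Ifitm3, Irf7, Isg15, Isg20, Oas2, Oas3, Oasl2 and Xaf1) and that of 3 without KO 2 (Igtp, Mx2 and Stat2). The share of all genes with such a turn was not counted, so these numbers describe the list only. Over all genes, 8 passed against WT (0 to 14 under alternatives, 14 with DESeq2), 1 against Hez (0 to 7, 7 with DESeq2) and 2 against both (0 to 107, 22 with DESeq2, 107 without KO 1 and 24 without KO 2). Both KO libraries lay below WT and Hez for 1 gene with DESeq2 size factors, an alternative chosen after seeing the data. The share of genes with an ISRE was 34.6% with the longer form. In the pathway and cell type lists 1 gene passed against WT, the club cell gene Scgb3a2 (log2 fold -0.88), and 0 with no filter on low counts, with a mean of at least 10 CPM and with limma on FPKM under each setting. Against WT and Hez together the count of 0 became 0 to 3 with 1 library left out. The cause of these shifts was not tested. No paired analysis was possible because the labels number no replicates and WT and Hez have 1 library each. Depth limits the ligand genes and Cxcl9, Cxcl10 and Cxcl11 most.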
